A study of Mus musculus with 6 samples.

Results

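The genes described here drive DNA replication and mitosis, and they were measured by RNA-seq in mouse tumour grafts whose cells either carried or lacked Axl, a receptor tyrosine kinase. A fixed list of 48 gene symbols defined them, and all 48 were found among the 39179 genes counted. No measured value entered this rule, but the list was chosen with earlier results of these data known. Of these, 24 act in the approach to and course of DNA replication and 24 in mitosis. The grafts carried MMTV-Neu tumour cells, in which a mammary tumour virus promoter drives the Neu (ErbB2) oncogene in mammary epithelium, and every library is labelled with the FVB strain. There were 2 groups of 3 libraries, WT replicates 1 to 3 (AXL+/+ cells) and AXL KO replicates 1 to 3 (AXL-/- cells), and no treatment or time was given. The labels do not give the site of the graft, the age of the hosts, the deleted exons, or whether the WT and AXL KO cells were 1 clone each. Nothing in them tells whether each graft grew in its own mouse, so p-values rest on the spread between libraries alone, which may be technical. A graft also holds host cells. In such bulk RNA, fewer cells of a type and less RNA per cell cannot be told apart.

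Cells enter the cycle when cyclin E and its kinase partner free E2F transcription factors from the pocket proteins, and E2F then drives genes that license and fire replication origins. Licensing loads the MCM helicase at the origin recognition complex, and the sliding clamp and the nucleotide-making enzymes then sustain synthesis. Genes of G2 and mitosis are switched on later, by the B-MYB-MuvB and FOXM1 factors acting through a cell cycle homology region (CHR) beside CCAAT boxes, while in resting cells the DREAM complex represses both sets. Levels of such transcripts, above all Mki67, are widely used as marks of proliferating tumour cells.

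The promoters of 6 of these genes are shown, since members that share such letters are found both among the genes that passed the test and among those that did not. They are the 250 bases before the RefSeq transcription start (GRCm38.p6), 5′ to 3′ on the gene's strand. Capitals mark the CHR letters TTTGAA, the CCAAT box and the E2F site TTTGGCGC, each on either strand. Mki67 (chr7:135716380-135716629 on the minus strand), Top2a (chr11:99024190-99024439 on the minus strand) and Ccnb2 (chr9:70421555-70421804 on the minus strand) are mitosis genes whose transcripts were higher in AXL KO grafts. Cdk1 (chr10:69352913-69353162 on the minus strand) is a mitosis gene that did not pass the test. Cdc25a (chr9:109875329-109875578 on the plus strand) is a replication-side gene that was higher, and Mcm6 (chr1:128359706-128359955 on the minus strand) is one that did not pass.
Mki67: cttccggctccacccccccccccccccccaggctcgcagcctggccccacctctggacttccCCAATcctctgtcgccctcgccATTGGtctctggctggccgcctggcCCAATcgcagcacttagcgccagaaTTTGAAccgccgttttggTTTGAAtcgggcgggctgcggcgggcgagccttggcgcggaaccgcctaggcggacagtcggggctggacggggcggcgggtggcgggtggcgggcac
Top2a: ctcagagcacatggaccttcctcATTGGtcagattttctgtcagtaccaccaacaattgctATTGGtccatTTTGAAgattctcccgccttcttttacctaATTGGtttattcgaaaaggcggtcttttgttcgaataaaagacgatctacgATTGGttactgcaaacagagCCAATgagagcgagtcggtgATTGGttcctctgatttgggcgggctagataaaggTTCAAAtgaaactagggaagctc
Ccnb2: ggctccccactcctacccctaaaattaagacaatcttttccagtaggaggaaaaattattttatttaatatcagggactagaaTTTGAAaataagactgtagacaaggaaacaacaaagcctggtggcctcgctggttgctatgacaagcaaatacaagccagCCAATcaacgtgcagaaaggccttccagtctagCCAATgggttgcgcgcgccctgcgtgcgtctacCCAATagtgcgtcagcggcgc
Cdk1: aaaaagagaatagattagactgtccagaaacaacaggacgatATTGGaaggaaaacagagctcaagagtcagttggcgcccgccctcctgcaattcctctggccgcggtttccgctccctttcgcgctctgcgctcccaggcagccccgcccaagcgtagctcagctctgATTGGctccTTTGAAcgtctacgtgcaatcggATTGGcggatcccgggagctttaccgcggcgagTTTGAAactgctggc
Cdc25a: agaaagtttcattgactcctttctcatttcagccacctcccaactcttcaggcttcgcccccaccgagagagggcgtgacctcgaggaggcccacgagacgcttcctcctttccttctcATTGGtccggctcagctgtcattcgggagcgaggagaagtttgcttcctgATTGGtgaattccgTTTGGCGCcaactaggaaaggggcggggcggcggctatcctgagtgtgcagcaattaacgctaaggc
Mcm6: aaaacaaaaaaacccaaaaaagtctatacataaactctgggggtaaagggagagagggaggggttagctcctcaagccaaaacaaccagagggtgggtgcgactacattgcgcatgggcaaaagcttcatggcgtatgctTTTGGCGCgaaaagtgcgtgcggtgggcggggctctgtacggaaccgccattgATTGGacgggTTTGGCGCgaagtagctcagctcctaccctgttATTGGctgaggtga
Top2a held 2 CHR and 6 CCAAT matches, and Mki67 and Cdk1 each held 2 and 3. Cdk1 thus had as many matches as Mki67, although its transcript did not pass the test. Mcm6 held 2 E2F sites and Cdc25a held 1, and neither held CHR letters.

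An E2F site of either common form, TTTGGCGC or TTTCCCGC, stood in 6 of the 22 replication promoters, from 20 genes with an entry (27.3%), and in 0 of the 18 mitosis promoters. Among all 32851 RefSeq promoters of this length, 1.3% held one. The CHR letters stood in 38.9% of mitosis promoters, in 13.6% of replication promoters and in 16% of all promoters. A CCAAT box was common on both sides, in 83.3% and 77.3% of promoters, against 33.8% of all. The 40 promoters came from 38 genes, and the other 10 had no entry. A match of letters is a description and not a bound site. Of the 8 genes that were higher in AXL KO grafts 7 had an entry, E2f2 with 2 promoters and Foxm1 with 0. CHR letters stood in 4 of these 8 promoters (50%) and in 6 of 31 of those not called (19.4%), a description for which no test was run.

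Each library held 26541009 to 32491807 counts in genes, and 37.4% of the 14850 genes tested differed between the groups. Axl itself, at 60.4 ± 8.95 CPM (counts scaled to library size, mean ± SD, n = 3) in WT and 60.1 ± 13.1 CPM in AXL KO libraries, did not set the groups apart (log2 fold change -0.01, edgeR adjusted p = 0.978). The counts cover the whole gene, so they do not check the genotype, and every direction given here is between libraries as labelled. The epithelial markers were detected in all libraries apart from Krt19, which had 8 counts or fewer. Of the 11 tested, 6 were lower in AXL KO libraries, among them Krt7 (log2 fold change -1.87), Cldn4 (-1.84), Krt18 (-0.60) and Epcam (-0.53), and 2 were higher, Erbb2 (0.36) and Esrp1 (0.56). With the median log2 fold change of each chromosome removed, 4 of the 6 lower and 1 of the 2 higher kept their calls. Erbb2 then lay at 0.17 (edgeR adjusted p = 0.244), Krt18 at -0.31 (edgeR adjusted p = 0.0571) and Krt8 at -0.15 (edgeR adjusted p = 0.197). Cldn7 was added as lower (-0.35, edgeR adjusted p = 0.0180). The summed level of the epithelial markers, 12374 to 13848 CPM in WT and 12406 to 14596 CPM in AXL KO libraries, was mostly Erbb2, at a mean of 7193 CPM in WT and 9207 CPM in AXL KO. The part of these shifts in the values of the replication and mitosis genes was not tested. One library stood apart on each side. WT replicate 2 was the lowest WT library for 22 of 24 replication genes, against 33.9% of all genes tested, with a median 22.3% below the mean of the other WT libraries. AXL KO replicate 3 was the lowest AXL KO library for 22 of 24 mitosis genes, against 31.8% of all genes, with a median 10.9% below the mean of its group's other libraries. Over all genes, AXL KO replicate 3 lay a median 0.183% below.

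**Figure D1:**
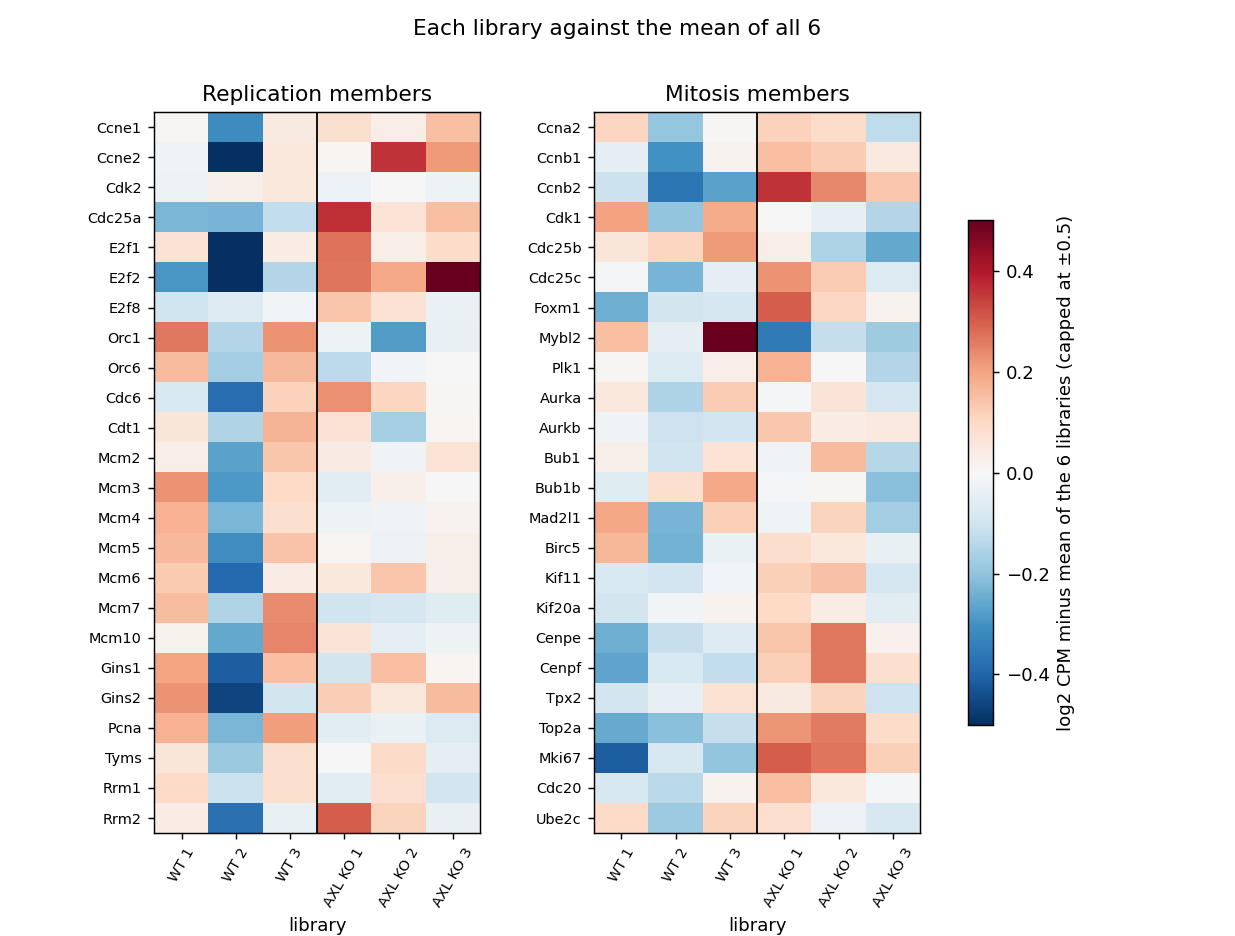
Colour gives log2 CPM of each gene in each library minus its mean over the 6 libraries, capped at 0.5 either way, for the replication genes (left) and the mitosis genes (right). The column of WT replicate 2 is blue for almost all replication genes, where it is the lowest WT library in 22 of 24. Of the genes shown, E2f2 has the largest log2 fold change between groups (0.64), and Ccnb2, Mki67 and Top2a lie at 0.49, 0.46 and 0.38.

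Most replication and mitosis transcripts did not differ detectably between the AXL KO and WT grafts. Of the 48 genes, 8 were higher, 1 was lower and 39 were not called (edgeR's quasi-likelihood test at a Benjamini-Hochberg adjusted p under 0.05 over all genes tested). Among all genes, 19.1% were called higher and 18.3% lower, so 18.8% called in either direction stands below the 37.4% of the whole transcriptome. The changes were small, from -0.45 to 0.64 on the log2 scale, and 20% of all genes tested changed by more than any of the 48. The median absolute log2 fold change was 0.13, against 0.27 over all genes. On the replication side 2 of 24 were higher and 0 lower (8.33% called), and the median log2 fold change was 0.03. On the mitosis side 6 of 24 were higher and 1 lower (29.2% called), with a median of 0.06, against 0.00 over all genes. The authors' deposited table also has 8 of the 48 higher and 1 lower at an adjusted p under 0.05, where 33.4% of its genes are called in either direction, and the same 8 genes are higher there.

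**Figure D2:**
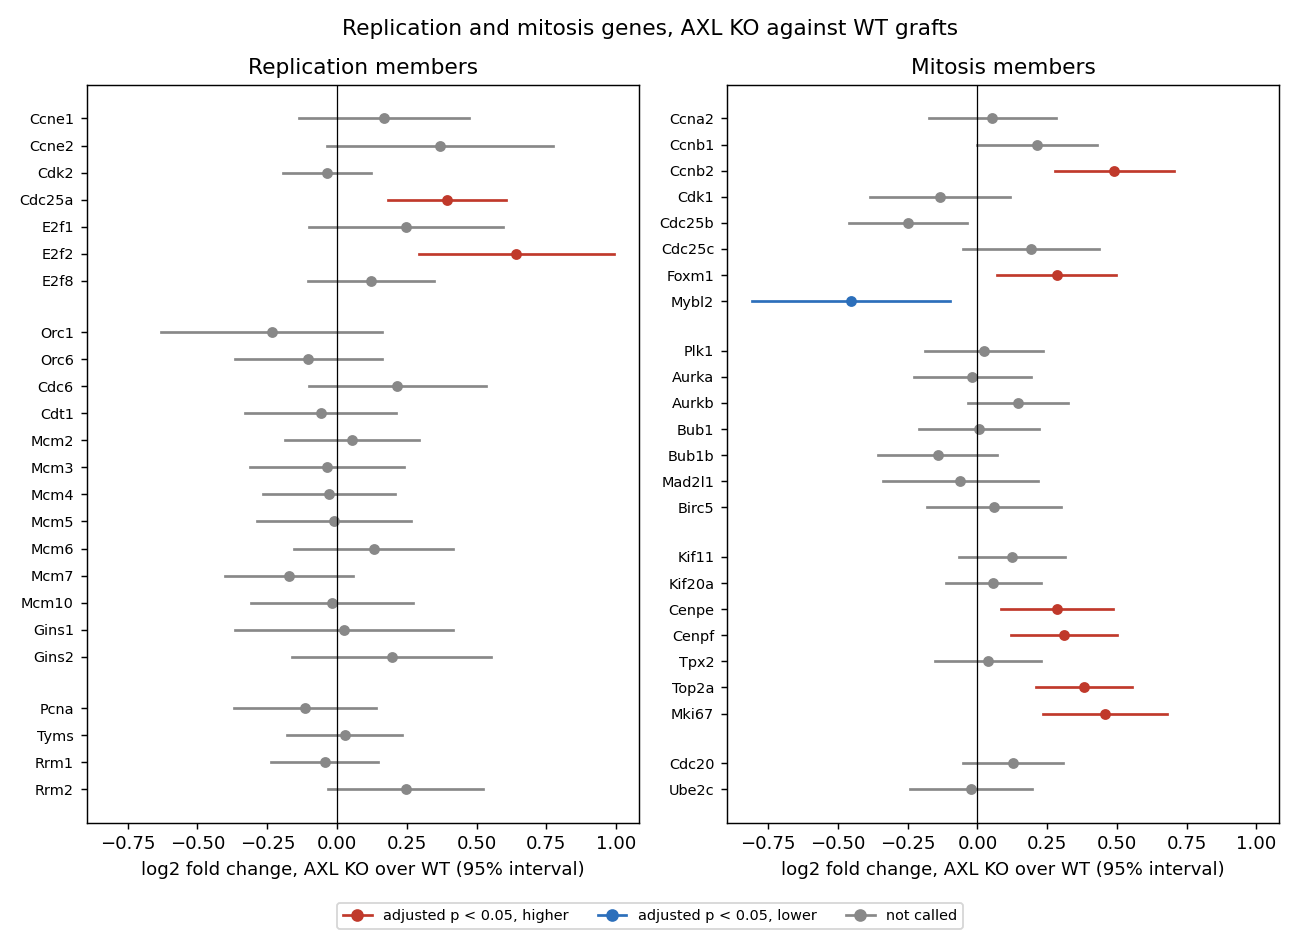
Points give the log2 fold change of AXL KO over WT and lines its 95% interval, for the replication genes (left) and the mitosis genes (right), in blocks by role. Red marks the 8 genes that were higher, blue marks Mybl2, which was lower, and the 13 origin and helicase genes all have intervals that include 0.

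Genes that control entry into S phase held both replication-side increases. Cdc25a, a phosphatase that activates cyclin E-Cdk2 (ENSMUSG00000032477, chromosome 9, 109875579 to 109893895), lay at 33.2, 33.2 and 35.8 CPM in WT replicates 1 to 3 and at 50.3, 40.9 and 43.3 CPM in AXL KO replicates 1 to 3. Every AXL KO library lay above every WT library, so the mean of 34.1 ± 1.46 CPM in WT became 44.8 ± 4.86 CPM in AXL KO, 1.31-fold more (here and below ± is the SD of 3 libraries unless marked SE). On the log2 scale it rose by 0.40 ± 0.09 (SE, edgeR adjusted p = 0.0107). E2f2, one of the activating E2F factors (ENSMUSG00000018983, chromosome 4, 136172394 to 136196057), lay at 5.34, 4.52 and 5.89 CPM in WT and at 7.86, 7.45 and 9.26 CPM in AXL KO libraries. The groups did not overlap, as for 26.9% of all genes in that direction. E2f2 rose 1.56-fold, or by 0.64 ± 0.15 on the log2 scale (SE, edgeR adjusted p = 0.0114), the largest log2 fold change of the 48 genes, at a low level.

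The kinase that Cdc25a acts on did not pass the test. Cdk2 lay between 41.3 and 43.7 CPM in all 6 libraries, with a log2 fold change of -0.04 and a 95% interval from -0.19 to 0.12 (edgeR adjusted p = 0.706). The cyclin E genes Ccne1 and Ccne2 had log2 fold changes of 0.17 and 0.37, and neither passed (edgeR adjusted p = 0.356 and 0.135). E2f1, a second activator, and E2f8, an atypical E2F that represses, lay at 0.25 and 0.12, also not called. Of the 7 genes of this role 6 had a positive sign, against 50% of all genes tested. The median of the 7 was 0.25. For Ccne2 the WT libraries averaged 11.7 ± 2.74 CPM and the AXL KO libraries 15.1 ± 1.85 CPM. The groups overlapped, and the lowest value, 8.61 CPM, was that of WT replicate 2.

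Both S phase increases lie on chromosomes whose genes were higher as a whole in the AXL KO libraries. The median log2 fold change of all tested genes was 0.28 on chromosome 4 and 0.20 on chromosome 9, and 0.00 over the genome. With each chromosome's median removed, E2f2 lay at 0.37 (edgeR adjusted p = 0.104) and Cdc25a at 0.20 (edgeR adjusted p = 0.146), and neither call held. What moved the chromosome medians was not tested.

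Of the 13 genes that license origins and unwind DNA 0 were called, against 37.4% of all genes tested. Their median log2 fold change was -0.02. The 6 subunits of the MCM2-7 helicase ranged from -0.17 to 0.13, with 95% intervals within -0.40 and 0.42 and a smallest edgeR adjusted p of 0.213. Mcm6 lay at 121, 84.2 and 113 CPM in WT and at 114, 122 and 113 CPM in AXL KO libraries. The groups overlapped, and WT replicate 2 stood below all other libraries. Mcm6 had a log2 fold change of 0.13 ± 0.13 (SE, edgeR adjusted p = 0.437). Mcm7 lay at 114, 92.3 and 121 CPM in WT and at 95.5, 96.7 and 98.1 CPM in AXL KO libraries (-0.17 ± 0.10, SE). Here too WT replicate 2 was the only WT library below the AXL KO ones.

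None of the loading factors was called. Cdc6, which helps load MCM onto the origin, lay at 12.7, 10.3 and 14.5 CPM in WT and at 15.7, 14.5 and 13.5 CPM in AXL KO libraries, overlapping groups with a log2 fold change of 0.22 ± 0.14 (SE, edgeR adjusted p = 0.253). Cdt1, the other loading factor, lay at -0.06 and the origin recognition subunits Orc1 and Orc6 at -0.23 and -0.10. Mcm10, which acts when the helicase is activated, lay at -0.02. Gins1 and Gins2, subunits of the GINS part of the active helicase, lay at 0.03 and 0.20, and both overlapped between the groups.

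The sliding clamp and the enzymes of nucleotide supply were likewise not called, 0 of 4, against 37.4% of all genes tested. Pcna, the clamp that holds DNA polymerase on its template, lay at 143, 108 and 147 CPM in WT and at 122, 124 and 121 CPM in AXL KO libraries. The AXL KO values were close together, between WT replicate 2 and the other WT libraries, and the log2 fold change was -0.12 ± 0.11 (SE, edgeR adjusted p = 0.448). Rrm2, the regulated subunit of ribonucleotide reductase, lay at 198, 149 and 188 CPM in WT and at 238, 208 and 188 CPM in AXL KO libraries (0.25 ± 0.12, SE, edgeR adjusted p = 0.146). Its partner Rrm1 lay at -0.04 and Tyms, which makes thymidylate, at 0.03. Pcna and Tyms have named pseudogene copies, so the split of their reads is uncertain. Per length, Rrm2 had the highest level of all 48 genes, 64.3 ± 9.32 RPKM (CPM per kilobase of exon) in WT and 76.3 ± 9.01 RPKM in AXL KO libraries, and Pcna came next.

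Readings of the replication side depended on WT replicate 2. Without it, Mcm7 fell by 0.27 on the log2 scale (edgeR adjusted p = 0.0190) and Pcna by 0.24 (edgeR adjusted p = 0.0252), and the median of the 24 genes moved from 0.03 to -0.05. Cdc25a and E2f2 stayed higher in each of the 6 fits that left out 1 library. Rrm2, on chromosome 12 with a median of -0.22, was called higher once chromosome medians were removed (0.46, edgeR adjusted p = 0.0213). For 19 of the 22 replication genes not called, the 95% interval of the change lay within 1.5-fold in either direction, so larger differences between these groups of libraries are outside those intervals.

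On the mitosis side, genes that bring the cell into mitosis moved in both directions. Ccnb2, a cyclin B that activates Cdk1 (ENSMUSG00000032218, chromosome 9, 70407692 to 70421547), lay at 55.4, 46.4 and 49.6 CPM in WT and at 76.6, 70.5 and 65.5 CPM in AXL KO libraries. The lowest AXL KO library lay above the highest WT library, as for 26.9% of all genes. Ccnb2 rose 1.4-fold, from 50.5 ± 4.56 to 70.9 ± 5.56 CPM (log2 fold change 0.49 ± 0.09, SE, edgeR adjusted p = 0.00407). Ccnb2 also has a named pseudogene copy. Foxm1, a transcription factor of G2 and mitosis genes, lay at 37.5, 41.8 and 42.0 CPM in WT and at 54.9, 47.8 and 45.0 CPM in AXL KO libraries. It rose 1.22-fold (0.28 ± 0.09, SE, edgeR adjusted p = 0.0417), a call that held in 1 of the 6 fits without 1 library, with an edgeR adjusted p of up to 0.161. Its exons overlap those of Tex52.

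Mybl2, which encodes the B-MYB factor that works with MuvB and FOXM1, was the only one of the 48 called lower. It lay at 16.1, 14.0 and 21.2 CPM in WT and at 11.3, 13.3 and 12.8 CPM in AXL KO libraries, without overlap, as for 25.2% of all genes in that direction. It fell 1.37-fold, from 17.1 ± 3.69 to 12.5 ± 1.03 CPM (log2 fold change -0.45 ± 0.16, SE, edgeR adjusted p = 0.0492). WT replicate 3 was the highest, and without it the log2 fold change was -0.27 (edgeR adjusted p = 0.173). Mybl2 stayed called in 1 of the 6 fits without 1 library. Mybl2, Cenpe and Cenpf are given in full because they passed the test, a choice made after their values were seen.

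The remaining entry genes were not called. Cdk1, the mitotic kinase itself, lay at 142, 108 and 141 CPM in WT and at 124, 121 and 112 CPM in AXL KO libraries, with a log2 fold change of -0.13 (edgeR adjusted p = 0.365). Without WT replicate 2, Cdk1 fell by 0.25 (edgeR adjusted p = 0.0311). Ccna2, cyclin A, had 152, 124 and 142 CPM in WT and 154, 151 and 130 CPM in AXL KO libraries (0.05 ± 0.10, SE, edgeR adjusted p = 0.705). Ccnb1, the other cyclin B, lay at 0.21 (edgeR adjusted p = 0.106), with groups that did not overlap, as for 26.9% of all genes in that direction. Like Ccnb2, Ccnb1 has a named pseudogene copy. The phosphatases that release Cdk1 had opposite signs, Cdc25b at -0.25 (edgeR adjusted p = 0.0653) and Cdc25c at 0.19 (edgeR adjusted p = 0.191). Cdc25b was called lower without AXL KO replicate 1 (-0.33, edgeR adjusted p = 0.0448).

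Mitotic kinases and the spindle checkpoint had 0 of 7 genes called, against 37.4% of all genes tested, and their median was 0.01. Aurkb, the kinase of the chromosomal passenger complex, lay at 26.2, 24.7 and 24.8 CPM in WT and at 29.2, 27.2 and 27.5 CPM in AXL KO libraries. The groups did not overlap, as for 52.1% of all genes in either direction, but the change of 0.15 ± 0.08 (SE) did not pass (edgeR adjusted p = 0.176). Bub1b, which encodes the checkpoint protein BUBR1, lay at 78.8, 87.2 and 93.6 CPM in WT and at 81.5, 82.6 and 71.0 CPM in AXL KO libraries (-0.14 ± 0.09, SE, edgeR adjusted p = 0.259). The other 5 lay close to 0. Plk1, the polo kinase, was at 0.02, Aurka, the spindle pole kinase, at -0.02, and the checkpoint kinase Bub1 at 0.01. Mad2l1, which holds back the anaphase-promoting complex, was at -0.06, and Birc5, the survivin subunit of the passenger complex, at 0.06.

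Of the 7 spindle, kinetochore and chromosome structure genes 4 were called higher (57.1%), against 19.1% of all genes tested. All 7 had a positive sign, against 50% of all genes tested, and the median of the 7 was 0.28. Mki67, which encodes the Ki-67 protein that coats mitotic chromosomes (ENSMUSG00000031004, chromosome 7, 135689784 to 135716361), lay at 320, 403 and 372 CPM in WT and at 526, 513 and 463 CPM in AXL KO libraries. All AXL KO libraries lay above all WT libraries, and Mki67 rose 1.37-fold, from 365 ± 41.8 to 501 ± 33.2 CPM (log2 fold change 0.46 ± 0.10, SE, edgeR adjusted p = 0.00685). Top2a, the topoisomerase that untangles sister chromatids (ENSMUSG00000020914, chromosome 11, 98992943 to 99024189), lay at 171, 176 and 188 CPM in WT and at 237, 243 and 217 CPM in AXL KO libraries. These groups were also apart, as for 26.9% of all genes in that direction. Top2a rose 1.30-fold (0.38 ± 0.08, SE, edgeR adjusted p = 0.00474).

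Transcripts of both large kinetochore proteins were higher. Cenpf had 73.2, 83.3 and 80.6 CPM in WT and 95.5, 105 and 93.2 CPM in AXL KO libraries, a 1.24-fold increase (edgeR adjusted p = 0.0183). Cenpe, a kinetochore motor, had 51.5, 56.4 and 58.4 CPM in WT and 67.3, 73.3 and 62.0 CPM in AXL KO libraries, a 1.22-fold increase (edgeR adjusted p = 0.0333). Neither pair of groups overlapped, as for 26.9% of all genes in that direction. Leaving out 1 library at a time, Cenpf stayed called in 4 of 6 fits and Cenpe in 2 of 6, with edgeR adjusted p-values of up to 0.0553 and 0.100. The motors Kif11 and Kif20a lay at 0.12 and 0.06 and the spindle assembly factor Tpx2 at 0.04, none of them called. For mitotic exit, Cdc20, the activator of the anaphase-promoting complex, had 44.0, 42.4 and 47.1 CPM in WT and 51.6, 48.3 and 46.2 CPM in AXL KO libraries (0.13 ± 0.08, SE, edgeR adjusted p = 0.228). Its ubiquitin-conjugating partner Ube2c had 92.9, 76.6 and 93.8 CPM in WT and 92.2, 85.1 and 82.1 CPM in AXL KO libraries (-0.02 ± 0.10, SE, edgeR adjusted p = 0.876). The groups of both genes overlapped.

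**Figure D3:**
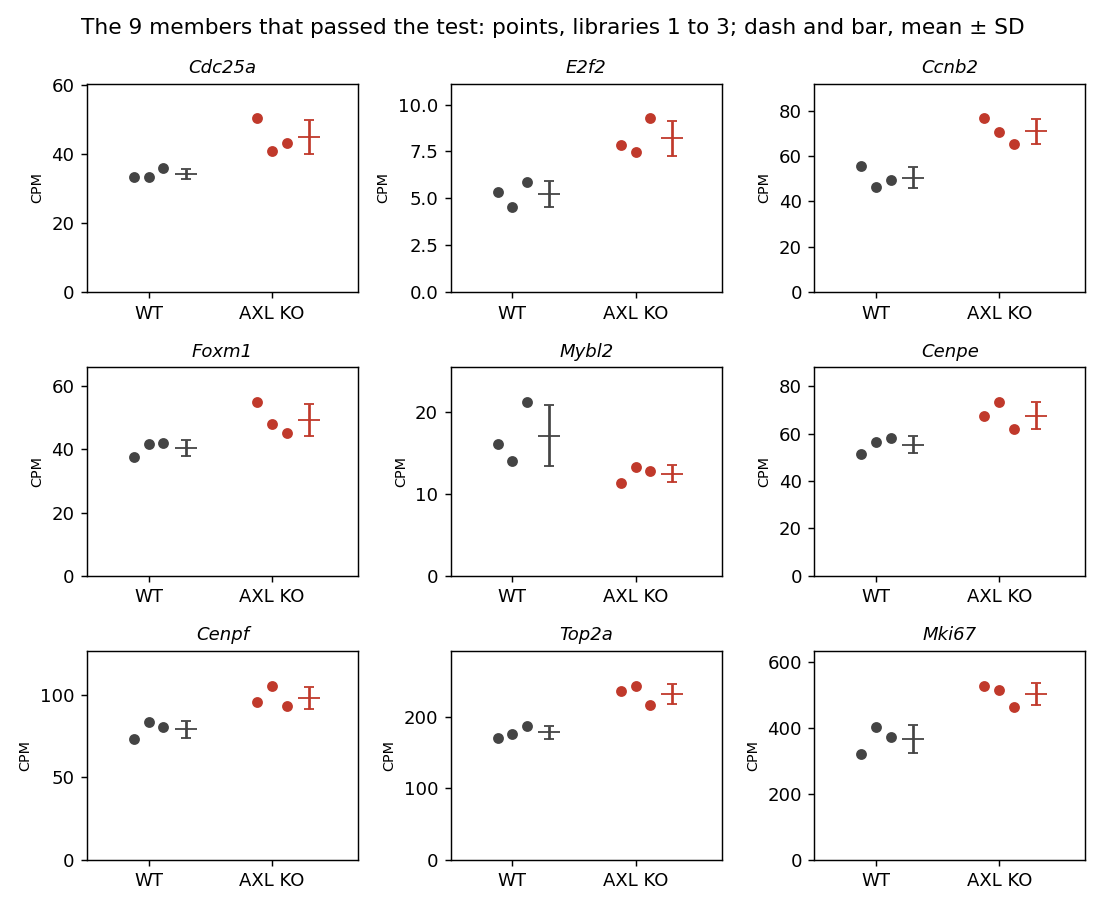
CPM from 0 upwards of the 9 genes that passed the test, with 1 point per library in the order 1 to 3 and the mean ± SD beside each group, WT in grey and AXL KO in red. The groups do not overlap in any of the 9 panels, which choosing the genes by the test favours. Over all genes tested, 52.1% do not overlap in either direction. Mki67 runs from 320 to 403 CPM in WT and from 463 to 526 CPM in AXL KO libraries.

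The genes called higher had a longer median exonic length, with all annotated exons merged, than those not called. Ccnb2, however, has only 1531 bases of exon. Over both sides, the median exonic length of the 8 genes called higher was 8321.5 bases, against 4083 bases for the 39 not called, and over all genes the median log2 fold change was 0.07 above 6 kilobases and -0.08 below 1.5 kilobases. With this length trend removed, an alternative chosen after seeing the data, Mki67 lay at 0.39, Top2a at 0.32 and Ccnb2 at 0.58, all still called. Cenpf lay at 0.19 (edgeR adjusted p = 0.104), Cenpe at 0.23 (edgeR adjusted p = 0.0739) and Foxm1 at 0.25 (edgeR adjusted p = 0.0697), so their calls ended. With chromosome medians removed, Top2a, on chromosome 11 with a median of 0.18, lay at 0.20 (edgeR adjusted p = 0.0774), whereas Mki67 lay at 0.48 and Ccnb2 at 0.29 and stayed called. What moved the log2 fold changes with length was not tested.

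**Figure D4:**
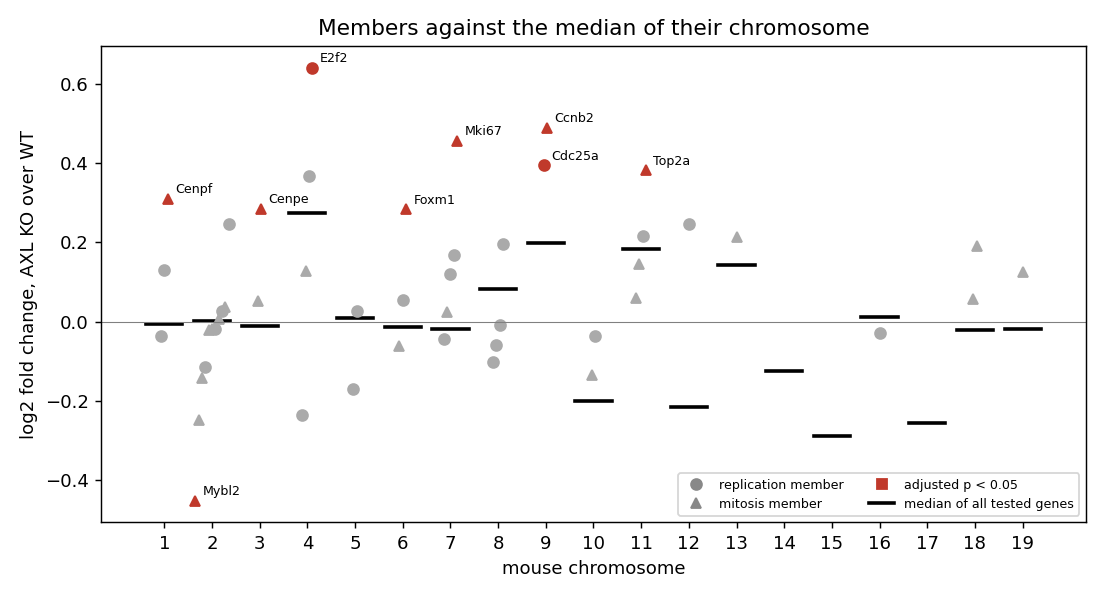
Log2 fold change of each gene (vertical axis) by mouse chromosome (horizontal axis), with circles for replication and triangles for mitosis genes, red where the adjusted p was under 0.05, and a black bar at the median of all tested genes of the chromosome. E2f2 lies above the raised bar of chromosome 4 (0.28), both genes on chromosome 9 are called, and Mki67 stands on chromosome 7, whose bar is near 0 (-0.02).

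Other genes of the same machinery, from lists that leave out the 48, were counted in the same fit. Of 42 other replication genes 5 were higher and 1 lower (14.3% called, against 37.4% of all genes tested), and their median was 0.01. Pole, the catalytic subunit of the leading strand polymerase, rose from 23.4 ± 1.32 to 33.9 ± 2.15 CPM (0.53 ± 0.09, SE, edgeR adjusted p = 0.00186). Orc3, an origin recognition subunit, rose from 27.8 ± 1.55 to 38.5 ± 2.20 CPM (0.47 ± 0.08, SE, edgeR adjusted p = 0.00275), and with the median of chromosome 4 removed it lay at 0.19 (edgeR adjusted p = 0.109). Of 50 other mitosis genes 10 were higher and 2 lower (24% called), and their median was 0.07. Hmmr, a spindle-associated protein, rose from 66.4 ± 5.37 to 97.5 ± 9.49 CPM (edgeR adjusted p = 0.00268). Ncapd2, a condensin subunit, fell from 181 ± 5.67 to 117 ± 4.99 CPM (-0.64 ± 0.07, SE, edgeR adjusted p = 0.000259). With chromosome medians removed, 1 of the 5 higher and the 1 lower replication genes kept their calls, Pole and Pole2. Of the mitosis genes, 4 of the 10 higher and 1 of the 2 lower kept theirs, and 2 that had not been called, Prc1 and Gtse1, were called higher.

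Regulators upstream of both sides were counted as 2 lists. Of 15 E2F partner, pocket protein and DREAM genes, 6 were higher and 0 lower (40% called, against 37.4% of all genes tested). With chromosome medians removed, 5 of these 6 were still called higher, Rbbp4 was not (0.02, edgeR adjusted p = 0.891), and E2f6 was added (0.39, edgeR adjusted p = 0.00755). Rbl2, the pocket protein p130 of the DREAM complex, rose from 51.3 ± 3.78 to 82.4 ± 3.50 CPM (0.68 ± 0.08, SE, edgeR adjusted p = 0.000417), and Tfdp2, an E2F dimer partner, rose from 46.4 ± 3.83 to 67.2 ± 1.91 CPM (edgeR adjusted p = 0.00147). Of 6 checkpoint and inhibitory kinases 3 were higher and 1 lower (66.7% called, against 37.4% of all genes tested). With chromosome medians removed 2 were higher and 0 lower. Atm, which responds to DNA breaks, rose 2.09-fold, from 37.3 ± 7.34 to 77.9 ± 2.59 CPM (1.06 ± 0.13, SE, edgeR adjusted p = 0.000517). Chek1, the replication checkpoint kinase, rose from 14.0 ± 1.03 to 23.1 ± 1.86 CPM (0.72 ± 0.10, SE, edgeR adjusted p = 0.00101). Atm and Chek1 lie on chromosome 9, and with its median removed they lay at 0.86 and 0.52 and stayed called (edgeR adjusted p = 0.00161 and 0.00569). Atr, the third of the higher kinases and on the same chromosome, lay at 0.38 (edgeR adjusted p = 0.00894) and then at 0.18 (edgeR adjusted p = 0.149).

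Markers of other cell types moved between the same groups of libraries, where 19.1% of all genes tested were called higher and 18.3% lower. Of 10 T cell markers 9 were higher in AXL KO libraries, with a summed level of 9.09 to 13.1 CPM in WT and 24.1 to 26.3 CPM in AXL KO. All 8 NK and cytotoxic markers were higher, from 2.80 to 4.85 CPM up to 30.0 to 41.6 CPM summed. Endothelial markers were lower in 9 of 10 genes, at 325 to 364 CPM in WT and 189 to 251 CPM in AXL KO libraries, and erythroid markers in 5 of 5 tested, at 646 to 1022 and 152 to 237 CPM. Macrophage markers had 1 of 10 higher and 1 lower. Fibroblast markers had 0 higher and 1 of 10 lower, but all 10 had a negative sign, with a median log2 fold change of -0.44. Their summed level was 1919 to 3180 CPM in WT and 1443 to 2396 CPM in AXL KO libraries, ranges that overlap. Of 4 neutrophil markers tested 0 were higher and 1 lower, with a summed 3.89 to 9.17 CPM in WT and 4.63 to 7.79 CPM in AXL KO libraries, and Ly6g, not tested, had 1 count over the 6 libraries together. The B cell markers summed to less than 1 CPM in each library. Which cells the replication and mitosis transcripts came from was not measured, and the part of these cell types in their values was not tested.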

How the data were processed

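RNA-seq of 6 tumour grafts, 3 WT and 3 AXL KO by their titles, was analysed. The submitters' processing notes name CASAVA 1.8, the aligner TopHat2 2.0.10, the counter HTSeq 0.5.3, the test DESeq2 1.4.5 and the build GRCm38. Use of strand in counting is not given in the sources used here, so reads of overlapping genes on opposite strands cannot be told apart. Exons of 16 of the 48 genes overlap another annotated gene. The authors deposited raw counts per gene for each library. Their 5 rows that name no gene, with 25.7% to 29.0% of lines not unique, 4.41% to 6.88% in no gene and 0.717% to 1.09% ambiguous, were left out. The authors' table also holds a signal per library, which equals the deposited count over 1 size factor within a relative deviation of 5.15e-10. Its log2 fold change and standard error, its score (the test statistic) and its p-values are the authors' deposited values, with the sign of WT over AXL KO turned round here.

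Genes were kept by filterByExpr (minimum count 10, minimum total 15), and 14850 of 21716 genes with any count remained. The test was edgeR's quasi-likelihood F test (edgeR 4.0.16, R 4.3.3), with TMM factors of 0.980 to 1.02, group as the only term and Benjamini-Hochberg adjustment over all genes tested. Each standard error is the absolute log2 fold change over the root of F, and the steps were tested on simulated data. Because 3 libraries against 3 allow no two-sided exact permutation p under 0.1, genes were tested in this model. Replicates were not copies of 1 library (chi-square per gene of 11.1 to 29.6 within groups and 93.5 to 152 between groups). Exonic lengths come from GENCODE M21 and promoters from RefSeq (GRCm38.p6). Alternatives were DESeq2 1.42.0 and its size factors, upper-quartile factors, limma-voom (limma 3.58.1), other filters, a replicate block, each library left out, chromosome medians removed and an adjusted p of 0.01. Removal of the length trend was added after seeing the data.

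The 48 genes, the other lists and the rule for named genes were chosen with earlier results of these data known. All 48 are named, and full values are given for the 2 with the smallest p and the most abundant of each role. From each list of other pathway genes the 2 with the smallest p are named.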

Additional observations from a re-analysis of the deposited data

How the results depend on the processing

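With DESeq2, with its size factors in edgeR and without a filter, the counts called among the 48 genes were those given above. Over all genes, against 2835 higher and 2717 lower, DESeq2 called 2732 and 2747, its size factors in edgeR 2771 and 2775, and the fit without a filter 2963 and 2663. At an adjusted p under 0.01 (edgeR), 1610 genes were higher and 1464 lower among all genes, with 0 replication genes higher and 3 mitosis genes higher and 0 lower. The count of mitosis genes called lower, 1 in the text, was 2 with upper-quartile factors, where Cdc25b was added, and 0 with limma-voom, with chromosome medians removed and with the length trend removed. The length trend left 3 mitosis genes higher. Removal of chromosome medians left 1 replication gene higher, Rrm2, in place of Cdc25a and E2f2. Leaving out 1 library at a time gave 3 to 6 mitosis genes higher, 0 to 2 lower, 2 replication genes higher, 0 to 2 lower, and 1733 to 2828 lower genes among all tested, the fewest without AXL KO replicate 3. The 3 mitosis genes higher were reached when either WT replicate 3 or AXL KO replicate 2 was left out. The 2 replication genes lower were reached without WT replicate 2. Of the 9 called genes, 5 (Cdc25a, E2f2, Ccnb2, Top2a and Mki67) were called in all 6 of these fits, and 2 (Ccnb2 and Mki67) in all 15 alternatives at an adjusted p of 0.05. No called gene changed sign, and 47 sign changes fell on 21 genes that were uncalled in both fits. The stricter filter at a mean log2 CPM of 2 left out Orc1. Where not stated here, the cause was not tested.

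Replicate numbers did not pair the libraries. Deviations of same-numbered libraries correlated at -0.0578, -0.125 and 0.0877, and no library correlated best with its own number. With a replicate block, 2458 genes were higher and 2373 lower, with 2 replication genes higher and 4 mitosis genes higher and 0 lower, and Foxm1, Cenpe and Mybl2 were no longer called. In WT libraries, Orc1 and E2f2 had the fewest counts and the lowest levels per length of the 48 genes. They lay at 1.15 ± 0.172 and 1.08 ± 0.142 RPKM (SD, n = 3).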

Other observations

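Subunits of the same complex differed in direction within the lists of other pathway genes, a pattern chosen after its values were seen. In DNA polymerase epsilon, Pole rose (log2 fold change 0.53 ± 0.09, SE, edgeR adjusted p = 0.00186), whereas Pole2, its second subunit, fell from 37.8 ± 5.45 to 24.4 ± 2.10 CPM (SD, n = 3 per group, edgeR adjusted p = 0.00383). With chromosome medians removed, Pole lay at 0.52 and Pole2 at -0.42, both still called (edgeR adjusted p = 0.00236 and 0.0295). In condensin, which compacts mitotic chromosomes, Ncapd2 fell by 0.64 on the log2 scale (edgeR adjusted p = 0.000259). Smc2, a core subunit, rose by 0.49 (edgeR adjusted p = 0.00291), and it lay at 0.21 (edgeR adjusted p = 0.0953) with the median of chromosome 4 removed. Smc4, Ncapg and Ncaph, the other condensin genes on the list of other mitosis genes, had log2 fold changes of 0.07, 0.06 and -0.10 and were not called.

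The genes that encode pocket proteins, which hold E2F factors inactive, were all higher in AXL KO libraries, a pattern chosen after its values were seen. They belong to the list of 15 E2F partner, pocket protein and DREAM genes, of which 40% were called, against 37.4% of all genes tested. Rb1 rose from 35.4 ± 2.54 to 48.4 ± 2.53 CPM (edgeR adjusted p = 0.00330) and Rbl1 from 48.2 ± 2.81 to 57.9 ± 2.48 CPM (edgeR adjusted p = 0.0263), beside Rbl2, given above. Pkmyt1, a kinase that holds Cdk1 inactive, was lower (-0.40 ± 0.12, SE, edgeR adjusted p = 0.0272), and with the median of chromosome 17 removed it lay at -0.14 (edgeR adjusted p = 0.405).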
